A study of Mus musculus with 3 samples.

Results

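The surface markers with which mouse blood stem cells are sorted were followed as transcripts across the 3 arrays of the series. The genes were chosen by name: Kit, Ly6a, Slamf1, Cd48, Cd34, Flt3, Procr, Esam, Cd9 and Thy1. Of these 10 genes, 9 had a probe set named in the platform's probe table, out of 23185 named genes. Ly6a, which encodes Sca-1, was not analysed here. RNA came from LT-HSCs, long-term haematopoietic stem cells, of female C57Bl/6 mice aged 8 to 10 weeks. Mice were non-irradiated or had received 8 Gy of total body irradiation (TBI), at CDR or as FLASH, and 10000 cells were taken from bone marrow 15 days after it. FLASH is irradiation at an ultra-high dose rate, and CDR is read here as conventional dose rate, which the labels do not spell out. Each group had 1 array, so no value has a replicate error, no test was possible, and all comparisons are between single arrays. How the cells were gated and how many mice gave the cells of each array is not given in the sources used here.

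Stem cells are sorted in mouse marrow by antibodies against cell surface proteins, after cells that carry antigens of mature lineages have been removed. The LSK gate keeps cells positive for Sca-1 and for KIT, and within it the SLAM gate takes cells with CD150 (Slamf1) and without CD48. Another gate takes cells with little CD34 and FLT3, 2 proteins that are gained as cells become multipotent progenitors. EPCR (Procr), ESAM, CD9 and low THY1 are further marks of the most immature cells. A gate acts on protein at the surface, whereas the arrays read RNA of the cells that passed it.

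All 9 markers were above the detection level on all 3 arrays, a log2 level of 4.15 without irradiation, 4.16 after CDR and 4.22 after FLASH, taken as the 95th percentile of 1363 odorant, pheromone and trace amine receptor genes. Among them were the markers that the gates select against. Cd48 read at least 9.70, Cd34 at least 10.81 and Flt3 at least 7.22 on a log2 scale on every array. Transcripts of all 9 genes were thus measurable in cells labelled LT-HSC, before and after irradiation. The arrays had median levels over named genes between 4.62 and 4.68, and 34.9% of detected genes had exactly the same deposited value on the CDR and non-irradiated arrays. An exact tie is a property of the deposited values.

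**Figure D1:**
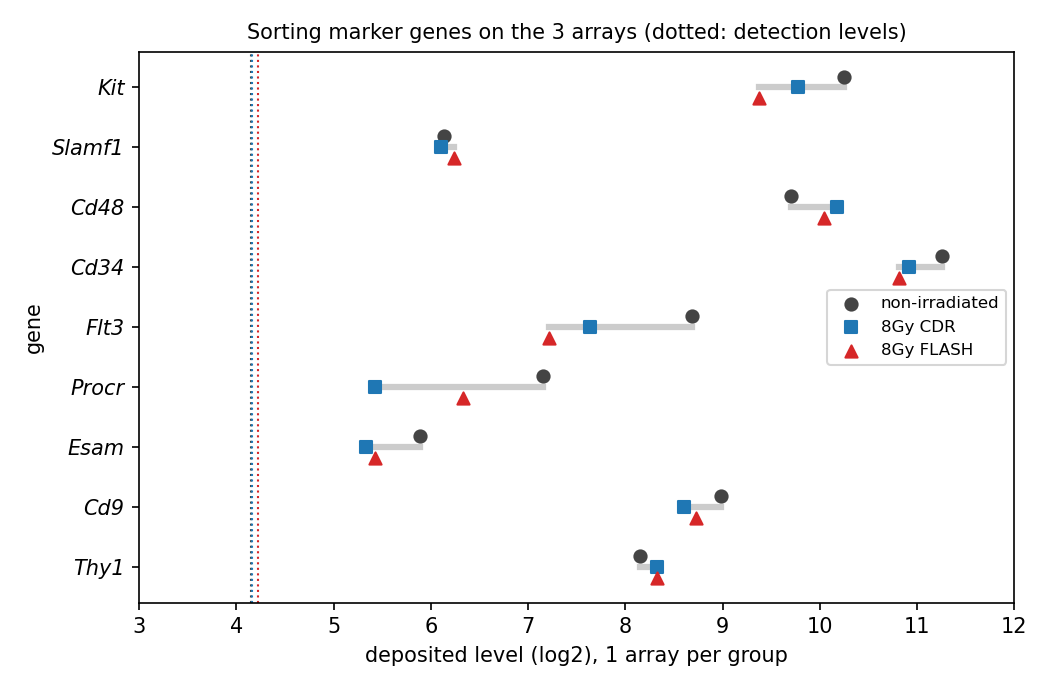
Deposited log2 level of each sorting marker gene (vertical axis) on the non-irradiated (circle), 8Gy CDR (square) and 8Gy FLASH (triangle) arrays, 1 array per group; grey bars join the lowest and highest value and dotted lines mark the detection level of each array. Procr and Flt3 have the longest bars, 1.73 and 1.47, and Slamf1 the shortest, 0.13.

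Of the 9 markers, 2 (Flt3 and Procr) were at least 1.5-fold lower after CDR than without irradiation and 0 as much higher. Among 13448 genes detected in that comparison, 5.38% were as much lower, 3.2% higher and 8.58% one or the other. After FLASH 3 markers, Kit, Flt3 and Procr, were lower and 0 higher, against 5.3%, 3.59% and 8.89% of 13286 detected genes. Between FLASH and CDR 1 marker, Procr, was higher after FLASH and 0 were lower, against 1.85% higher, 0.781% lower and 2.63% in either direction of 13182 detected genes. These shares are also the background for the counts of every gene list below. At 2-fold the markers were 2 (Flt3 and Procr), 1 (Flt3) and 0 in the respective comparisons, and the shares of detected genes in either direction 3.12%, 2.92% and 0.994%. The median over the markers was -0.38 for CDR and -0.44 for FLASH, each against non-irradiated, and 0 between FLASH and CDR, while the median over all detected genes was 0 in each. With an offset of 32 added to unlogged values the FLASH median was -0.28. The comparisons of CDR and of FLASH share the non-irradiated array, and with so few genes, all chosen by name, these counts describe the set.

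**Figure D2:**
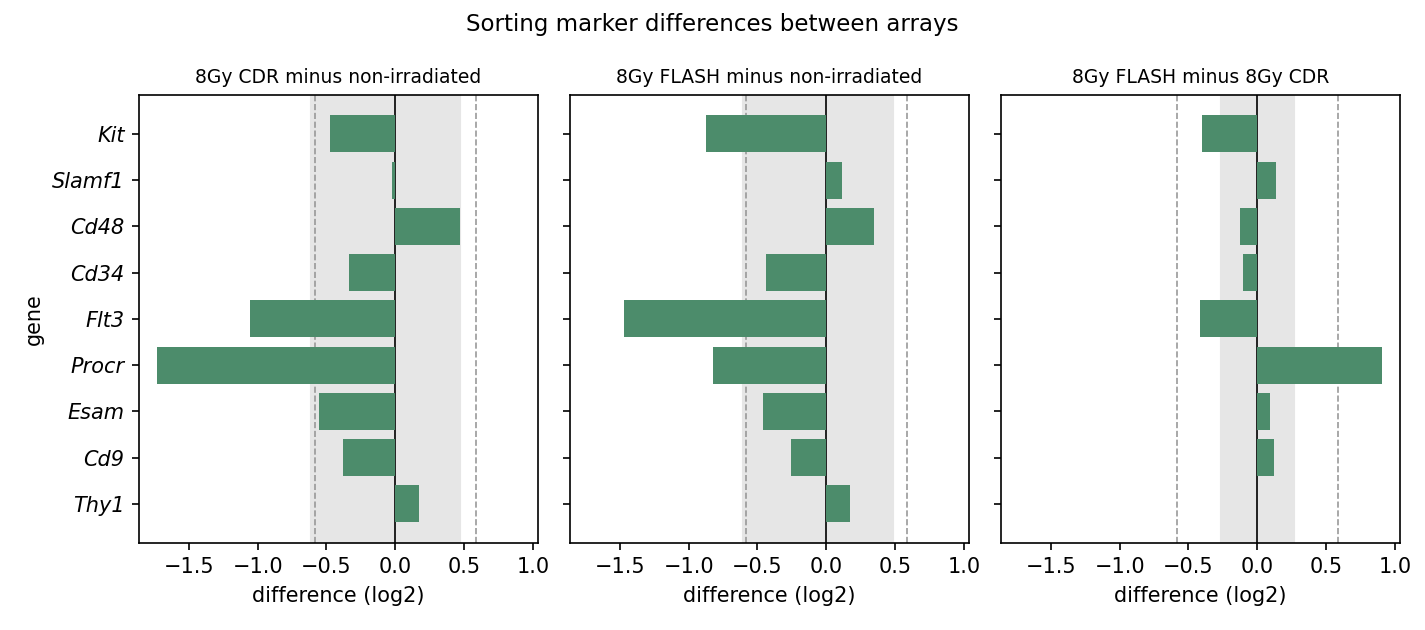
Log2 difference (horizontal axis) of each sorting marker gene (vertical axis) for CDR minus non-irradiated, FLASH minus non-irradiated and FLASH minus CDR; grey bands span the 5th to 95th percentile of all detected genes and dashed lines mark 1.5-fold. Procr and Flt3 lie outside the band in all 3 panels, Kit does in the last 2, and Cd48 lies at the upper edge of the first.

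The 3 markers at least 1.5-fold apart between any 2 arrays followed different orders. Flt3 and Kit were highest without irradiation and lowest after FLASH, whereas Procr was lowest after CDR. The region before each gene's start is shown for these 3 genes because their transcripts differed most. The sequences are the 250 bases upstream of the RefSeq transcript start in build GRCm38.p6, written 5′ to 3′ on the gene's own strand, for Procr at chr2:155750967-155751216 on the plus strand, Kit at chr5:75574737-75574986 on the plus strand and Flt3 at chr5:147400490-147400739 on the minus strand. Capitals mark matches to the motifs listed after them.
Procr: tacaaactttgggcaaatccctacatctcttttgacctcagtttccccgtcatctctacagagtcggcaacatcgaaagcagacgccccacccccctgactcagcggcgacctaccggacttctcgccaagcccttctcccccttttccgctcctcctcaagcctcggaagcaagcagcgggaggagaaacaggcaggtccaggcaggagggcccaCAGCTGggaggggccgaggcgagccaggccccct
Kit: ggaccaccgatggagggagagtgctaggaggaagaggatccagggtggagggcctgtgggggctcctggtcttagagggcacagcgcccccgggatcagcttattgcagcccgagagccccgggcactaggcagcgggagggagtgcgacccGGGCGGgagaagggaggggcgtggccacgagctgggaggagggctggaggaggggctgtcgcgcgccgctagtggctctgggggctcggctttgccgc
Flt3: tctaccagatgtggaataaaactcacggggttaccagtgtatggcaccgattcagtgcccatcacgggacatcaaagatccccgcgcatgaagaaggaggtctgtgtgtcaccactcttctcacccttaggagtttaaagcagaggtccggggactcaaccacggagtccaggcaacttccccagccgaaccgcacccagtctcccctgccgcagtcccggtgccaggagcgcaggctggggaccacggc
The motifs searched were read on both strands: AGATAA of GATA factors, CCGGAA of ETS factors, TGTGGT of RUNX factors, the E-box CAGCTG, the GC box GGGCGG and TATAAA. The Procr window held 1 E-box, found in 12.8% of the 27025 RefSeq promoter windows of this length, and the Kit window 1 GC box, found in 32.9%. The Flt3 window held none of these letter strings. G and C made up 70.8% of the Kit window, 61.6% of the Procr window and 59.2% of the Flt3 window, against a median of 52% over all windows. Of the 7 markers with a promoter in the table, 0 held AGATAA, which occurs in 10.3% of all windows, and 0 held TATAAA, which occurs in 13%. CCGGAA was in the Cd9 window alone and TGTGGT in the Cd48 window alone. The E-box and the GC box were not particular to Procr and Kit, as the Cd9 window held both. These matches describe the letters of the windows and say nothing of binding.

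KIT is the receptor tyrosine kinase for stem cell factor and one of the proteins that define the LSK gate. Kit read 10.25 in non-irradiated, 9.78 in CDR and 9.38 in FLASH cells. The level was highest without irradiation and lowest after FLASH. The log2 difference was -0.47 for CDR and -0.87 (1.83-fold lower) for FLASH against non-irradiated. FLASH stood -0.40 (1.32-fold lower) from CDR. Among all detected genes, 2.39% had a lower difference than Kit between FLASH and non-irradiated, and 7.15% did between CDR and non-irradiated. In bulk RNA, fewer cells of a type and less RNA per cell cannot be told apart.

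FLT3 is the receptor of FLT3 ligand. It is carried by multipotent progenitors with lymphoid potential and by dendritic cell precursors, and LT-HSC gates select against it. Flt3 read 8.69 in non-irradiated, 7.64 in CDR and 7.22 in FLASH cells, the same order of arrays as Kit. It was 2.07-fold lower after CDR and 2.77-fold lower after FLASH than without irradiation. Between the irradiated arrays it was 1.34-fold lower on FLASH, a log2 difference of -0.42. In all, 0.655% of detected genes had a lower difference between FLASH and non-irradiated.

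Other type III receptor tyrosine kinase genes and their ligands were taken as relatives of Kit and Flt3. Of 8 detected members, these 2 included, 2 (Flt3 and Pdgfrb) were at least 1.5-fold lower after CDR. After FLASH 4 were (Kit, Flt3, Csf1r and Pdgfrb), and 0 were as much higher in either. The list's median, to which Kit and Flt3 themselves contribute, was -0.14 and -0.47, against 0 over all detected genes in each comparison. These medians depended on the detection filter, being 0 and 0 without it and -0.38 and -0.75 with the level at the 99th percentile, and the FLASH value was -0.32 under the offset of 32. Csf1r, the macrophage colony-stimulating factor receptor, read 6.36, 6.59 and 5.58 in non-irradiated, CDR and FLASH cells. It was thus low after FLASH and not after CDR, with a difference of -1.01 between them. Pdgfrb, a platelet-derived growth factor receptor, was lower on both irradiated arrays, at -0.65 and -0.73. Flt3l, the ligand of FLT3, stood at -0.28 on CDR and 0.18 on FLASH. The remaining detected ligand genes were Csf1, at 0 and -0.20, and Pdgfa and Pdgfb, each at 0 and 0. Of all detected genes, 8.58%, 8.89% and 2.63% were at least 1.5-fold apart in the 3 comparisons. Of 31 detected adaptor, kinase, phosphatase and feedback genes downstream of KIT and FLT3, 0 were in any comparison. The farthest from 0 were Dusp6, a phosphatase of ERK kinases, at -0.55 on CDR, and the adaptor Gab1 at -0.48 on CDR and -0.47 on FLASH.

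CD34 is a sialomucin that is scarce on adult mouse LT-HSCs and present on progenitors. Cd34 read 11.25 in non-irradiated, 10.92 in CDR and 10.81 in FLASH cells. Its order was that of Kit and Flt3, over a narrower range. The differences from non-irradiated were -0.34 (1.26-fold lower) and -0.44 (1.36-fold lower), within 1.5-fold. Of the 6 genes of its list, all detected, 1 was at least 1.5-fold higher and 1 lower after either irradiation, with a median of -0.07 in each comparison. Podxl, podocalyxin, another member of this sialomucin family, was higher on the irradiated arrays, from 4.75 to 5.50 on CDR and 6.23 on FLASH. Emcn, endomucin, was lower, from 7.21 to 6.27 and 6.21. The others differed little, Podxl2 at 0 and 0, Cd164 at 0.11 and 0.05, and Spn at -0.14 and -0.13.

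SLAMF1 (CD150) and CD48 are members of the signalling lymphocyte activation molecule family whose opposite presence defines the SLAM gate. Slamf1 read 6.13 in non-irradiated, 6.11 in CDR and 6.24 in FLASH cells. These values lie within 0.13 of each other, and the sign of the CDR difference, -0.02, turned under median centring and quantile normalisation. Cd48 read 9.70, 10.18 and 10.05 in the same order. It was higher on both irradiated arrays, by 0.47 (1.39-fold) on CDR and 0.34 (1.27-fold) on FLASH, and 95% of detected genes had a lower CDR difference. Neither gene passed 1.5-fold in any comparison. In the SLAM family and its adaptor genes, 8 genes were detected between CDR and non-irradiated and 7 in each of the other comparisons. Of these, 0 passed 1.5-fold between CDR and non-irradiated, and 1 did in each comparison with FLASH. That gene was Slamf7, which encodes CRACC, a SLAM receptor of plasma cells and cytotoxic lymphocytes. Slamf7 read 5.35 in non-irradiated, 4.86 in CDR and 6.40 in FLASH cells, so it was lowest on one irradiated array and highest on the other. Cd84, a further family member, was lower on both, at -0.41 and -0.46.

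EPCR, the endothelial protein C receptor, binds activated protein C and is used alone or with CD48 and CD150 to sort stem cells. Procr read 7.15 in non-irradiated, 5.42 in CDR and 6.33 in FLASH cells. The CDR array was the lowest, and the FLASH array lay between the others. Procr was 3.32-fold lower after CDR and 1.77-fold lower after FLASH than without irradiation. After FLASH it was 1.87-fold higher than after CDR, a log2 difference of 0.91, and 1.22% of detected genes had a larger difference in either direction. With an offset of 32 added before the log this difference was 0.59. The other genes of the protein C pathway differed less. Of 7 detected members, Procr alone passed 1.5-fold in each comparison. The thrombin receptor gene F2r stood at -0.32 on CDR and -0.18 on FLASH, and F2rl3, another thrombin receptor, at -0.32 and -0.23.

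ESAM is an adhesion molecule of endothelial and stem cells. Esam read 5.89 in non-irradiated, 5.33 in CDR and 5.43 in FLASH cells. It was 1.47-fold lower after CDR and 1.37-fold lower after FLASH, within 1.5-fold. Under the offset of 32 these log2 differences, -0.55 and -0.46, were -0.33 and -0.28. Among all detected genes, 5.38% were at least 1.5-fold lower after CDR and 5.3% after FLASH. Of the 7 detected genes of its adhesion family, 1 was as much lower after each kind of irradiation and 0 were higher. That gene was F11r, junctional adhesion molecule A, which read 8.10, 6.37 and 6.60. The F11r difference after CDR was -1.73, that of Procr to 2 decimals.

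CD9 is a tetraspanin, a class of membrane proteins that organise receptors into clusters, and is found on stem cells, megakaryocytes and mast cells. Cd9 read 8.99 in non-irradiated, 8.60 in CDR and 8.73 in FLASH cells. The differences were -0.38 (1.30-fold lower) and -0.26 (1.2-fold lower), the same order of arrays as Esam and Procr. Of 21 detected tetraspanin genes, 3 were at least 1.5-fold lower after CDR and 4 after FLASH. As much higher were 1 and 2. The shares over all detected genes were 5.38% and 5.3% lower, and 3.2% and 3.59% higher. The list's median was -0.15 on CDR and -0.26 on FLASH, against 0 over all detected genes. Tspan6 was at -1.09 and -0.64, Tspan32 at -0.78 and -0.94, and Tspan8 at 0.81 and 0.85.

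THY1 (CD90) is a small GPI-anchored protein of T cells, neurons and, at a low level, stem cells. Thy1 read 8.15 without irradiation and 8.32 on both irradiated arrays, which were exactly tied. The difference was 0.17 (1.13-fold). The defining T cell genes Cd3e, Cd3d and Cd3g read at most 3.73 and were under the detection level on every array. Other genes of T and NK cells were above it, among them Nkg7, at 10.94, 11.29 and 11.11, and Klrb1c, at 5.99 on each array. In the Ly6 family, the relatives of Ly6a, 11 genes were detected. Of these, 1 was at least 1.5-fold lower after CDR, and 2 were lower and 1 higher after FLASH. The shares over all detected genes were 5.38% lower after CDR, and 5.3% lower and 3.59% higher after FLASH. Ly6d, a surface marker of lymphoid progenitors committed to the B lineage, read 7.35, 5.44 and 6.38, lowest on the CDR array as Procr was. Ly6c2 read 11.08, 11.21 and 10.49. It is nearly identical to Ly6c1, so its signal is uncertain. The Ly6c1 probe set itself read 2.31, 2.07 and 2.26, under the detection level on every array. Whether the Ly6c2 probe set also reads Ly6c1 was not tested.

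The markers were also read by whether gates select for or against them. Thy1 was counted as positive, although it is low THY1 that marks the most immature cells. Against non-irradiated cells the 2 kinds did not part into opposite directions. Of the positive markers Kit, Slamf1, Procr, Esam, Cd9 and Thy1, 5 were lower after CDR, Slamf1 among them at -0.02 with a sign that turned with the scaling, and 4 after FLASH. Of all detected genes, 30.4% were lower, 34.7% higher and 34.9% tied after CDR, and 33.0% lower and 33.8% higher after FLASH. Of the negative markers Cd48, Cd34 and Flt3, 2 were lower on each irradiated array and 1, Cd48, was higher. Between FLASH and CDR, the 3 negative markers were all lower after FLASH, Cd48 at -0.13, Cd34 at -0.10 and Flt3 at -0.42. Of the 6 positive markers 4 were higher, Procr at 0.91, Slamf1 at 0.13, Cd9 at 0.12 and Esam at 0.10, while Kit was lower at -0.40 and Thy1 tied. None of these signs turned under the 3 scalings, apart from the tie of Thy1, but Procr alone passed 1.5-fold. The stability of the signs carries little weight. The differences of Cd48, Cd34, Slamf1, Cd9 and Esam lay within -0.26 to 0.27, the 5th to 95th percentile of all detected genes. Median centring moved the median over all detected genes by only -0.03 here. Of all detected genes, 31.9% were lower after FLASH than after CDR, 25.6% higher and 42.5% tied.

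Further surface genes used to divide stem and progenitor cells were described in the same way. Of 29 detected genes, 7 were at least 1.5-fold lower and 3 higher after CDR, and 6 were lower and 3 higher after FLASH. The shares over all detected genes were 5.38% lower and 3.2% higher after CDR, and 5.3% and 3.59% after FLASH. The list's medians were -0.06 and -0.03. Cd27, a costimulatory receptor of multipotent progenitors, was at -1.0 and -0.97. Robo4, a guidance receptor of stem cells and endothelium, was at -1.05 and -0.72, and Vldlr, a lipoprotein receptor, at -0.90 and -1.15. Fcgr2b, an inhibitory Fc receptor, was higher, at 1.38 and 0.93. Tek, the angiopoietin receptor TIE2, read 5.80, 5.15 and 5.76, so that it was low after CDR only. Cdh5, VE-cadherin of endothelium, read 6.05, 6.18 and 7.0, high after FLASH only. From CDR to FLASH, Tek and Cdh5 of this list were at least 1.5-fold higher and 0 genes as much lower.

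**Figure D3:**
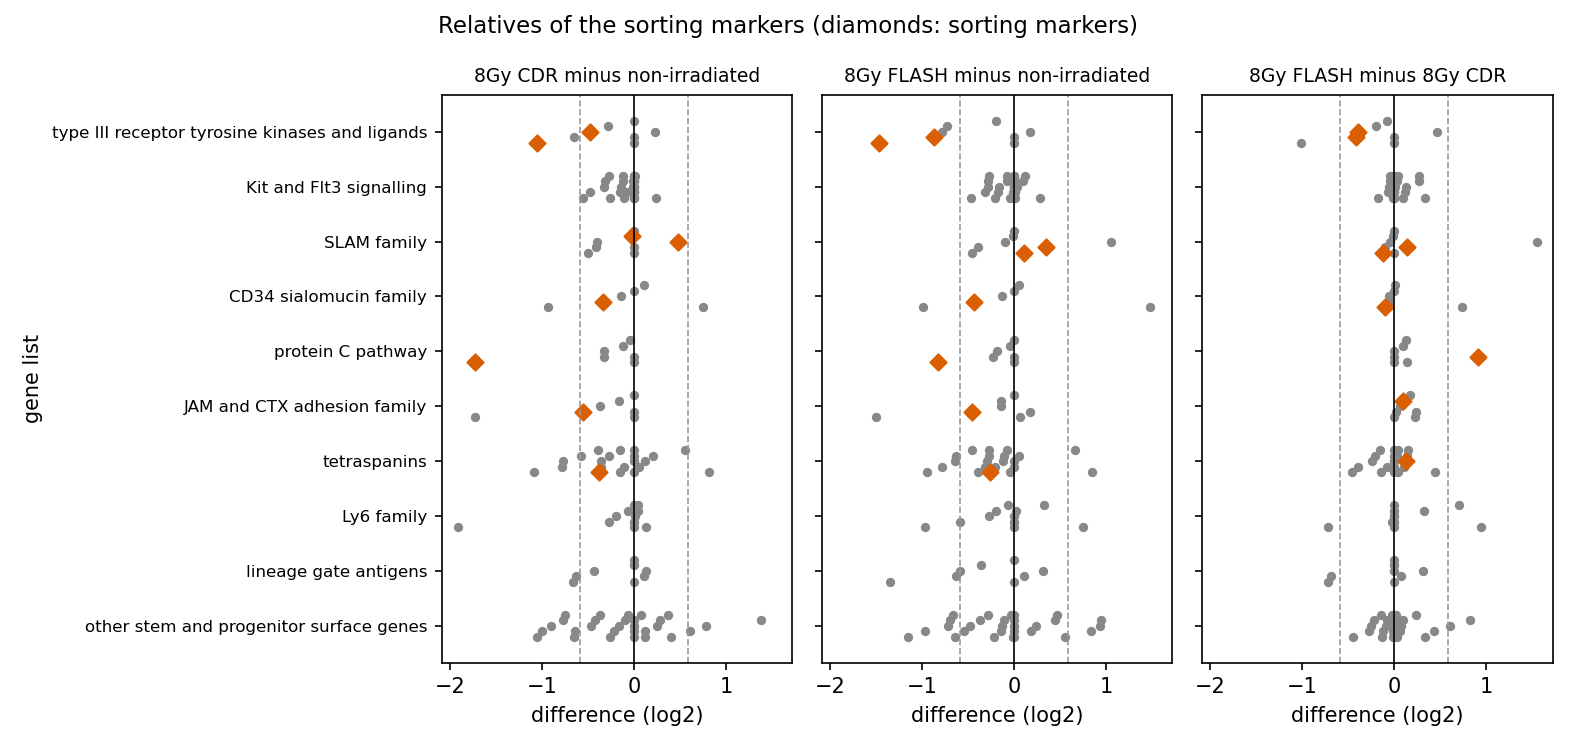
Log2 differences (horizontal axis) of genes in 10 lists (vertical axis) for the 3 comparisons; each point is a gene above the detection level on at least 1 array, orange diamonds are the sorting markers, dashed lines mark 1.5-fold, and vertical offsets within a list only separate points. Kit and Flt3 signalling genes all lie inside 1.5-fold, and Procr stands apart from the rest of the protein C pathway.

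Of the antigens of mature lineages that sorting removes, some were above the detection level. Of 16 measured genes, 7 were detected between CDR and non-irradiated and 8 between FLASH and non-irradiated. By deposited values 2 of these, Itgam and Cd4, were at least 1.5-fold lower after CDR. After FLASH 3 were, Ly6c2 with its uncertain signal being the third, and 0 were higher in either. Of all detected genes, 5.38% were as much lower after CDR and 5.3% after FLASH. Cd5, at 4.23, and Cd8a, at 4.25 to 4.37, lay close to the detection level. Itgam, the integrin chain CD11b, read 6.42, 5.76 and 5.08. Cd4, counted here by its deposited values, passed the detection level without irradiation alone. There it was at least 1.15-fold higher than after CDR and at least 1.11-fold higher than after FLASH, so a 1.5-fold difference is not shown.

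Markers of other cell types were set beside these results. For their counts, the shares over all detected genes were 5.38% lower and 3.2% higher after CDR, and 5.3% and 3.59% after FLASH. All 9 measured erythroid markers were detected on every array, and 6 were at least 1.5-fold higher after CDR and 7 after FLASH, with 0 lower. The summed erythroid level was 11.07 (log2) in non-irradiated, 11.92 in CDR and 11.99 in FLASH cells. Rhag, a red cell membrane protein gene, stood at 1.62 and 1.67. Of 8 megakaryocyte markers 1 was at least 1.5-fold lower after either irradiation, Gp9 of the von Willebrand factor receptor, at -1.07 and -1.23, and the summed level was 10.85, 10.35 and 10.39.

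Dendritic cell markers, a list that holds Flt3 itself, had a summed level of 10.62, 10.81 and 11.8. Of 7 detected between CDR and non-irradiated, 3 were at least 1.5-fold higher and 1, Flt3, lower. The higher ones were H2-Eb1 of MHC class II at 1.06, Xcr1 at 1.04 and the receptor Clec9a at 0.95. Of 8 detected between FLASH and non-irradiated, 5 were at least 1.5-fold higher, with H2-Eb1 at 2.36 and Clec9a at 2.15. Flt3 was again the 1 lower. Siglech was under the detection level on every array. Mast cell and basophil markers had a summed level of 10.82, 10.34 and 10.51 and a mean log2 level of 6.16, 6.08 and 6.37. After either irradiation 2 of 8 detected genes were higher and 1 lower by at least 1.5-fold. The lower one was the basophil protease gene Prss34, at -2.71 and -1.38. Tpsb2, a mast cell tryptase gene, lay under the detection level without irradiation and was at least 3.34-fold higher after CDR and at least 6.31-fold higher after FLASH.

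The summed granulocyte level was 13.92, 14.14 and 14.03, but the mean log2 level of the same genes was 8.44, 8.06 and 8.14. Of 9 detected granulocyte markers, 3 were at least 1.5-fold lower and 1 higher after either irradiation. The lower ones were S100a9 of calprotectin, at -2.25 and -1.31, and the granule genes Ngp and Camp. Ngp stood at -1.67 and -1.69, and Camp at -1.42 after FLASH and at least 3.34-fold lower after CDR. Other granule genes were higher on both arrays, within 1.5-fold. These were Mpo at 0.17 and 0.09, Elane at 0.38 and 0.18, Prtn3 at 0.46 and 0.35, and Ctsg at 0.51 and 0.27. S100a8, also of calprotectin, stood at -0.20 and -0.03. Cebpe, a transcription factor of granulocyte maturation, was higher, at 0.88 and 0.77. Ltf and Ly6g were under detection on every array. Monocyte and macrophage markers had a summed level of 11.63, 11.95 and 11.30 and went both ways. The brightest gene in these sums was Ly6c2, with its uncertain signal, at 11.08, 11.21 and 10.49. After CDR 1 of 8 detected genes was at least 1.5-fold higher and 0 lower, and after FLASH 1 of 7 was higher and 2 lower. Ccr2, a chemokine receptor of monocytes, was the higher one, at 1.46 and 0.59, while Csf1r, at -0.78, and Ly6c2, at -0.59, were lower after FLASH.

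For B cells and antibody-secreting cells the sum was 12.44, 11.31 and 12.21, with Ebf1 and Ms4a1 under detection on every array. Of 8 detected genes of this list, 3 were at least 1.5-fold lower after CDR and 1 after FLASH, with 0 higher. Lower after CDR were Jchain, the joining chain of antibodies, at -2.14, Ighm of the IgM heavy chain at -1.34 and the coactivator gene Pou2af1 at -1.03, and lower after FLASH was Cd79b of the B cell receptor at -0.98. For T and NK cells the sum was 11.07, 11.39 and 11.23, most of it from the single gene Nkg7, at 10.94, 11.29 and 11.11. Among 6 detected genes, Cd4 was under the detection level after either irradiation, at least 1.15-fold lower after CDR and at least 1.11-fold lower after FLASH, and 0 were at least 1.5-fold higher. Endothelial and stromal markers had sums of 9.97, 9.78 and 10.15, with Lepr and Col1a1 under detection on every array. Of 8 detected, 1 (Emcn) was at least 1.5-fold lower after CDR and 0 higher. After FLASH 4 were higher, Plvap at 1.12, Sparc at 1.07, Cdh5 at 0.94 and Kdr at 0.60, and Emcn was lower at -0.99. Stem cell markers, Procr and Slamf1 included, had a summed level of 11.90, 10.69 and 10.97. Of 11 detected, 6 were at least 1.5-fold lower after CDR and 5 after FLASH, with 0 higher; the transcription factor gene Hlf stood at -2.0 and -1.90 and Gata2 at -0.94 and -0.61. The part of these cell types in the differences of the sorting markers was not tested.

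**Figure D4:**
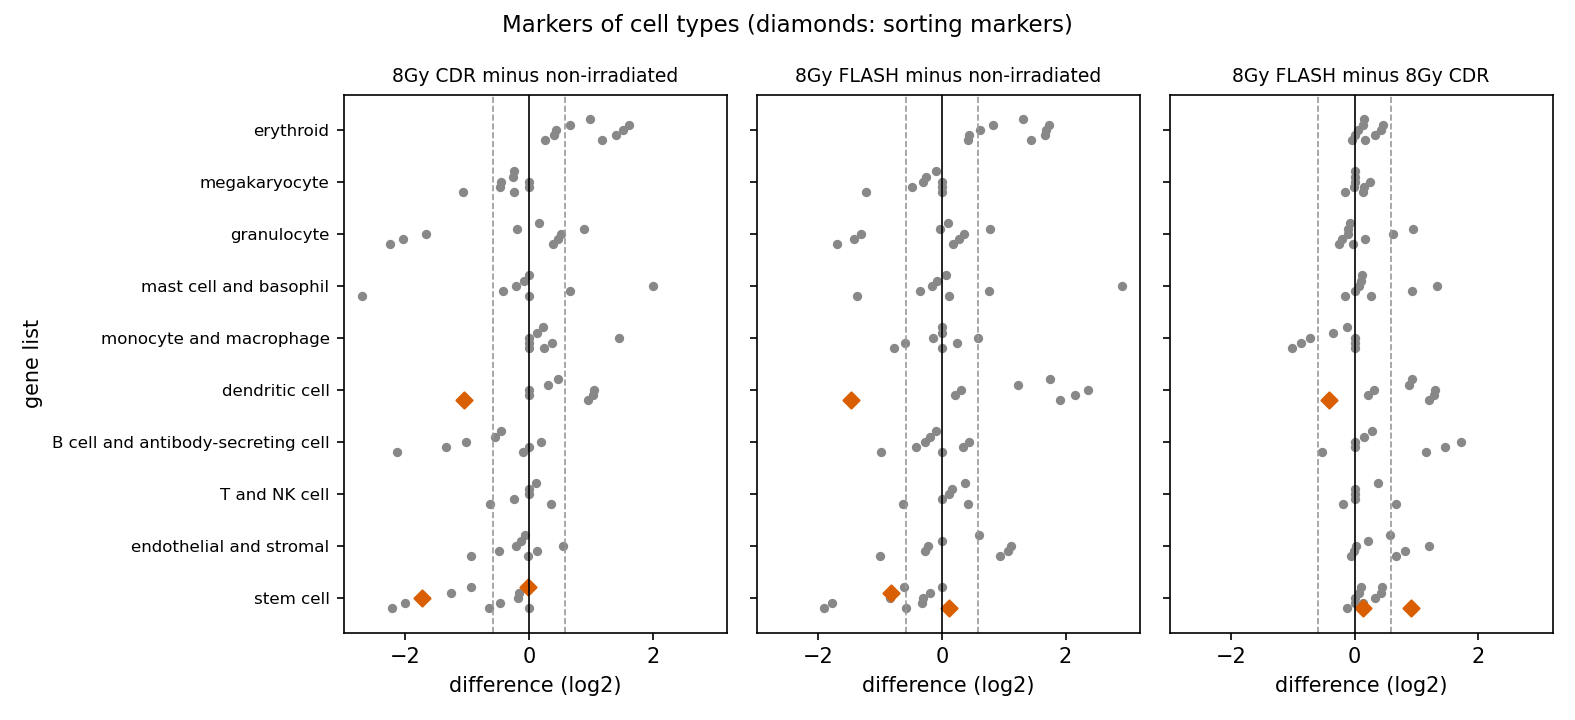
Log2 differences (horizontal axis) of marker genes of 10 cell types (vertical axis) for the 3 comparisons; each point is a gene above the detection level on at least 1 array, orange diamonds are sorting markers that stand in the list, and dashed lines mark 1.5-fold. All erythroid markers are above 0 on both irradiated arrays, and Flt3 is below 0 there while the other dendritic cell markers are at or above 0.

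The genes most like each of the 3 markers were found by the distance between their pairs of log2 differences from the non-irradiated array, over 12023 detected genes and 3 arrays. Gene models, predicted genes, microRNA, snoRNA and antigen receptor segments were left out. For Kit the nearest were Ndufb11 (distance 0.016), Otos (0.035) and Ccng2 (0.044), and 10 genes lay within 0.1. For Flt3 they were Ccl19 (0.051), Prg2 (0.13) and Ebi3 (0.13), and for Procr Phlda2 (0.08), Slc27a6 (0.18) and Cpxm1 (0.2), with 1 gene within 0.1 for each. Phlda2 stood at -1.79 on CDR and -0.77 on FLASH. Fewer genes thus lay near Flt3 and Procr than near Kit, but such counts depend on the size of the differences. After CDR 12.2% of detected genes had a larger difference in either direction than Kit, 2.74% than Flt3 and 0.93% than Procr.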

How the data were processed

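The deposited table gives the authors' processed level of each of 25206 probe sets on a log scale, taken as log2 from its range. Partek, with no version, is named per the submitters' processing notes; how background, probe summary and scaling between arrays were handled is not given in the sources used here. Of the probe sets, 23185 were named by the platform's probe table, each with its Entrez identifier, and 2021 stayed unnamed. No further scaling was applied, and differences are between log2 values.

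A gene counted as detected if the brighter of the arrays compared exceeded its detection level, and genes at least 1.5-fold apart were counted. Folds against a value under the detection level are lower bounds. A summed level is the log2 of summed unlogged values, so the brightest genes of a list weigh most in it. Members and lists were chosen with earlier results of these data known. Named genes were the markers, genes among the 3 largest differences of each list, the 3 nearest patterns and RefSeq neighbours; further list members were named after their values were seen, as were the cell type markers named. Promoter sequences are RefSeq's (GRCm38.p6), and 7 of 9 markers matched by symbol. Kit had 2 listed starts, of which the first was used.

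The settings varied were the scaling (centring on medians, quantile or cyclic loess; in R 4.3.3 with limma 3.58.1), the offset (32), the detection level and a 2-fold threshold. The number of arrays, 1 per group, limits the precision of every value. Counting was tested on simulated data with shifts far past the threshold, which checks the counting code and not differences near the threshold. Python 3.11.15, numpy 2.4.6, pandas 2.3.3 and matplotlib 3.10.9 were used.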

Additional observations from a re-analysis of the deposited data

How the results depend on the processing

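The counts of markers at least 1.5-fold apart were the same under median centring, quantile normalisation, cyclic loess, an offset of 32, no detection filter and a detection level at the 99th percentile. With a 2-fold threshold the count was again 2 for CDR against non-irradiated, but 1 (Flt3) in place of 3 for FLASH against non-irradiated and 0 in place of 1 for FLASH against CDR. Of 108 marker differences under the 3 scalings and the offset, 101 moved by at most 0.1, and the 7 that moved more were of Procr, Flt3 and Esam under the offset, which brings all differences nearer to 0. The sign turned for 2, both of Slamf1 between CDR and non-irradiated, and the offset cannot turn the sign of a difference. Of 216 list medians, 16 moved by more than 0.1, and the sign turned for 5, all of the SLAM family. These medians were at most 0.0145 from 0 in the main setting and at most 0.0485 after the turn. The median of the markers for FLASH against non-irradiated was -0.28 under the offset. No paired analysis was possible because each group had 1 array and no test was run. The background correction and normalisation of the deposited values could not be varied.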

Other observations

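Some of the markers are held at the surface by a glycosylphosphatidylinositol (GPI) anchor, among them CD48 and THY1. Genes of GPI anchor assembly differed little between the arrays. After CDR 0 of 25 detected genes stood at least 1.5-fold away, against 8.58% of all detected genes. After FLASH 1 did, higher, against 8.89% in either direction. That gene was Piga, the catalytic subunit of the first enzyme of anchor synthesis, which read 6.79 in non-irradiated, 7.20 in CDR and 7.45 in FLASH cells. Pgap2, which acts on the lipid of the finished anchor, read 8.34, 8.72 and 8.15.

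The measured genes next to each marker in the RefSeq gene order were also read. Of 32 neighbours, 20 were detected. At least 1.5-fold lower was 1 after CDR and 1 after FLASH, in each case Nrgn beside Esam, at -1.20 and -1.02. Of all detected genes, 5.38% and 5.3% were as much lower, and 3.2% and 3.59% as much higher. Such small counts do not set the neighbours apart from all detected genes. At least 1.5-fold higher on FLASH were Kdr, beside Kit, at 0.60, and Slamf7, which lies with Cd48 and Slamf1 in the SLAM gene cluster, at 1.05. The neighbours of Procr, Edem2 and Mmp24, had the same value on all 3 arrays. Cdx2 and Pan3, near Flt3, read -0.52 and -0.13 on FLASH.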
